A study of Mus musculus with 12 samples.

Results

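The genes described here encode the nuclear part of the oxidative phosphorylation machinery: subunits of respiratory chain complexes I to IV and of the ATP synthase, complex V, with the complex I assembly factors that share the Nduf name. Members were chosen by symbol, from probe sets that the platform annotation gives exactly 1 gene symbol, as names beginning Nduf followed by a, b, c, s or v, the Sdh genes a to d, names beginning Uqcr, Cox4 to Cox8 with a following letter a, b or c, Cyc1 and names beginning Atp5. This found 88 genes among the 22180 genes with a single-symbol probe set, and the brightest probe set stood for each gene. They divide into 32 complex I subunits, 8 complex I assembly factors (Ndufaf1 to Ndufaf8), 4 complex II subunits, 8 complex III subunits, 16 complex IV genes, the supercomplex factor Cox7a2l, 17 complex V genes and 2 pseudogenes. Of the 88, 82 exceeded a brightness limit of 5.29, the 40th percentile of all values, in at least 3 arrays and were tested. Cox7b2, Cox8b, Cox8c, Ndufa4l2 and both pseudogenes did not exceed it in any of the 12 arrays.

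Affymetrix arrays were run on LSK cells, bone marrow cells without lineage markers that carry SCA1 and cKIT and include the blood stem cells, sorted from mice older than 20 months on a C57BL/6 background. Wild-type (WT) mice were compared with NIPA knockout (KO) mice, which lack the product of Zc3hc1; the allele is not described in the sources used here. Each sample merged cells of 3 mice, was cultured for 30 min in serum with IL-3, IL-6 and SCF, received 4 Gy of ionizing radiation or none, and was harvested 3 h later. Values are the deposited log2 expression values, normalized across arrays with RMA per the submitters' processing notes. The 4 groups, untreated WT, irradiated WT, untreated KO and irradiated KO, hold 3 arrays each. Whether untreated and irradiated samples were portions of the same pools is not stated, so p-values measure the spread between these arrays.

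Oxidative phosphorylation takes place in the inner mitochondrial membrane. Complex I takes electrons from NADH and complex II from succinate. Both pass them through ubiquinone to complex III and through cytochrome c to complex IV, which reduces oxygen. Complexes I, III and IV pump protons, and complex V makes ATP from the returning flow. Nearly all subunits are encoded in the nucleus, while a few core subunits come from mitochondrial DNA; those were not analysed here. Blood stem cells are known for relying little on respiration while quiescent and raising it as they enter the cycle and differentiate.

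The promoters of 72 of the 88 genes, 77 windows in all, were found in the RefSeq promoter table (mouse build GRCm38.p6, 250 bases before to 50 after the start of transcription). They were searched on both strands for letters of factors known to act on respiratory chain genes. The palindrome of nuclear respiratory factor 1 (NRF1), GCGCA directly followed by TGCGC, was present in 7 of 72 genes (9.72%) and in 290 of 27025 genes of the table (1.07%). Its shorter core GCATGCG, which overlaps the palindrome, was present in 13 (18.1%, against 4.01%). The ETS letters CCGGAAG, which the ETS factor GABP recognises, were present in 19 (26.4%, against 9.93%), and the YY1 letters AAGATGG in 11 (15.3%, against 7.28%). A pair of p53 half-sites with a spacer of up to 13 bases was present in 0 of 72, against 0.07%. A match is a run of letters and was not measured as a bound site.

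Windows are printed, 5′ to 3′, for the member that rose after irradiation and for 3 members that fell, 2 with motif letters and 1 without, so that their letters can be read beside their values. Of the 12 members that fell averaged over genotypes, 10 had a window in the table, and 5 of these windows held at least 1 of the motifs and 5 held none. Whether motif letters go with a fall was not tested. Capitals mark motif letters. The Cox6b2 window lies at chr7:4753045-4753344 on the minus strand and holds none of these letters. The Ndufaf4 window lies at chr4:24897833-24898132 on the plus strand, with the palindrome from -113 to -104 relative to the start and a further core, on the other strand, from base 2 to 8 after it. The Ndufs7 window lies at chr10:80249199-80249498 on the plus strand, with YY1 letters from base 24 to 30 after the start. The Atp5o window lies at chr16:91931581-91931880 on the minus strand and, like that of Cox6b2, holds no motif letters.
Cox6b2: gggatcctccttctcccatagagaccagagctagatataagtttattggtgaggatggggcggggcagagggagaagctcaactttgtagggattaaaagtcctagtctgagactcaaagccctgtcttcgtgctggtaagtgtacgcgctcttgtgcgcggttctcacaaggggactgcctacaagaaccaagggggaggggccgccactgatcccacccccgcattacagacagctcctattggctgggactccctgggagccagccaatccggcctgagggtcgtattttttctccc
Ndufaf4: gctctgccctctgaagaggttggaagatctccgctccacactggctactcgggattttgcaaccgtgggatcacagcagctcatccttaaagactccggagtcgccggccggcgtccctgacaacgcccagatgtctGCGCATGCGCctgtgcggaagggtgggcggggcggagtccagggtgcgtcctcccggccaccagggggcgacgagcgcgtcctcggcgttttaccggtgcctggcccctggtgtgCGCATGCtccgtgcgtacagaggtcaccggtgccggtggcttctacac
Ndufs7: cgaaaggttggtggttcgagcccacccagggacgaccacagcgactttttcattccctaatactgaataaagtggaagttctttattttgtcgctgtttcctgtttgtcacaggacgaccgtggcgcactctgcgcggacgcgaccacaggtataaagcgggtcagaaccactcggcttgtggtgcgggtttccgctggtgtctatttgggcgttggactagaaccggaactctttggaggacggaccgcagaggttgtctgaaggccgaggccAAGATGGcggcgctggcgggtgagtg
Atp5o: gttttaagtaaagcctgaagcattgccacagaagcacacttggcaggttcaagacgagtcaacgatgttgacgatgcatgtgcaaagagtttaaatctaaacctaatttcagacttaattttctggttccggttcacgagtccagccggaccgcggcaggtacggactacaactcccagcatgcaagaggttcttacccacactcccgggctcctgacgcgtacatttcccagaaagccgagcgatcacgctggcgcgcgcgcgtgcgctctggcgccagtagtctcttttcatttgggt

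Several facts of the whole series bear on these genes. Zc3hc1 lay between 5.61 and 5.82 on the log2 scale in the 6 KO arrays and between 7.67 and 8.47 in the 6 WT arrays. Of 12 LSK markers listed, 10 had a single-symbol probe set and all 10 exceeded the brightness limit. In the limma test described below, averaged over genotypes, 2 of the 10 fell with irradiation and 0 rose. The shares of all genes were 9.6% lower and 6.9% higher. The mean log2 value of 11 erythroid markers was 7.07 to 7.54 in untreated arrays and 6.61 to 6.84 in irradiated arrays. With irradiation averaged over genotypes, 6 of the 11 fell in the same limma test, beside 9.6% of all genes. Their part in the results below was not tested. The mean of 7 monocyte markers was 7.63 in untreated KO array 1 and 7.94 in irradiated KO array 1, against 6.47 to 6.97 in the other 10. For 9 B cell markers, the median deviation from untreated WT was 1.62 in untreated KO array 2 and 1.32 in irradiated KO array 3. It ran from -0.48 to 0.66 in the other 10 arrays. The part of B cells in the results below was not tested. In bulk cells, fewer cells of a type and less RNA per cell cannot be told apart.

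The 6 irradiated arrays did not all look alike for these genes. Each gene's value was set against the mean of untreated WT arrays, and the median over the 82 genes was 0.05, 0.06 and -0.10 in untreated WT, -0.24, -0.04 and -0.42 in irradiated WT, -0.10, -0.07 and -0.16 in untreated KO, and 0.03, -0.41 and -0.40 in irradiated KO. So 4 irradiated arrays lay below every untreated array, while irradiated WT array 2 and irradiated KO array 1 lay among them. In irradiated KO array 1, 46 of the 82 genes were above all 3 untreated KO arrays and 11 were below all 3. In irradiated KO arrays 2 and 3, 73 and 64 were below all 3. The corresponding counts in irradiated WT were 61, 33 and 74 of 82. Over all 15348 genes tested, the share below all 3 untreated arrays of the same genotype ran from 29.8% to 38.2%. The share above all 3 ran from 27.9% to 32.7%, and it was 31.2% in irradiated KO array 1. The high monocyte marker level of irradiated KO array 1 was also present in untreated KO array 1, whose median of -0.10 lay between those of the other untreated KO arrays; the part of these cells in the result was not tested. The erythroid marker mean of irradiated KO array 1 was 6.64, within the range of the other irradiated arrays. For 10 granulocyte markers, its median deviation from untreated WT was 0.49, against -0.69 to 0.43 in the other irradiated arrays. That deviation ran from -0.82 to 0.69 in untreated arrays. The part of granulocytes and erythroid cells in the result was not tested either.

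**Figure D1:**
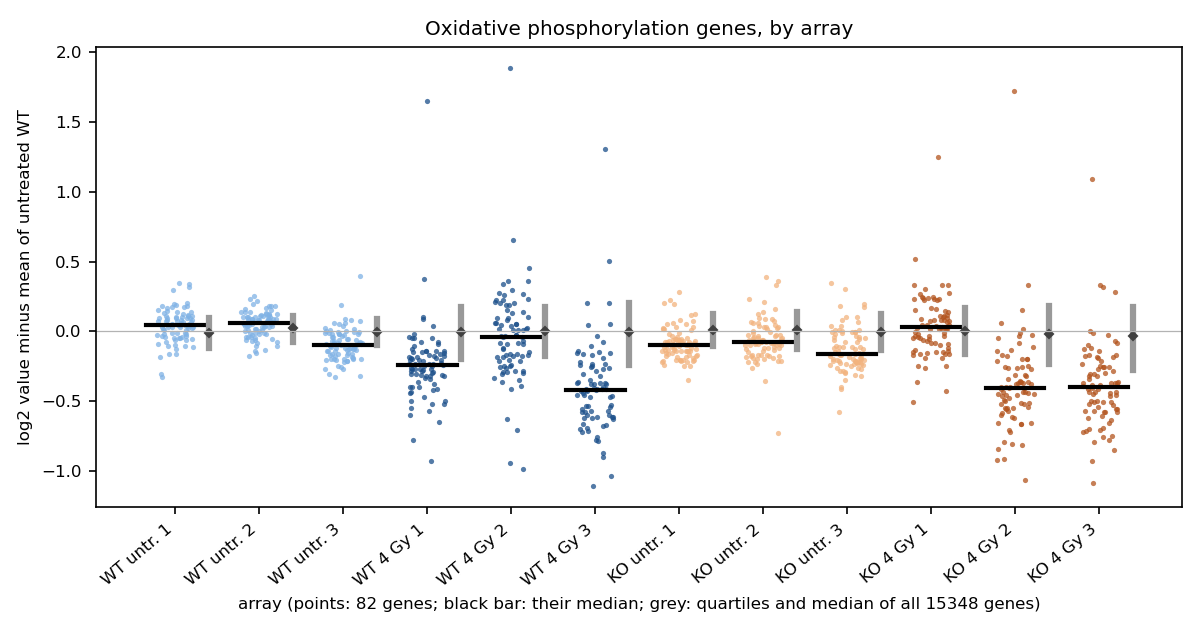
Log2 value of each of the 82 tested oxidative phosphorylation genes minus its mean in untreated WT cells (y axis), by array (x axis); points are genes, black bars their medians, grey bars and diamonds the quartiles and medians of all 15348 genes. The black bars fall to between -0.24 and -0.42 in 4 of the 6 irradiated arrays and stay at -0.04 and 0.03 in irradiated WT array 2 and irradiated KO array 1, while Cox6b2 is the single high point of each irradiated array.

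The response to irradiation was compared first within WT cells. Cox6b2, which encodes the isoform of complex IV subunit 6b best known from testis, rose, and Ndufaf6 and Atp5o fell, while 75 of the 82 genes had a difference below 0. Differences were tested with limma in a single fit over all 12 arrays, with Benjamini-Hochberg adjustment over the 15348 genes and a threshold of 0.05. The 1 rise and 2 falls among 82 genes stand beside 4.83% of all genes tested (2.13% higher and 2.7% lower), so the count of calls is near the background. A difference below 0 was found in 49.3% of all genes. The median log2 difference of the members was -0.25 against 0.00 for all genes, with a median half-width of the 95% confidence interval of 0.36 for a single member. In 29 of the 82 genes all 3 irradiated arrays lay below all 3 untreated ones (13.3% of all genes), and in 2 they lay above (11.4%). The members are not independent of each other in these counts: over the 12 arrays, the deviations of 2 members from their group means had a median Pearson r of 0.58, against 0.03 between a member and another tested gene. The median over the members had a pooled within-group SD of 0.16 between arrays, and its values in untreated and irradiated WT arrays overlapped. Unadjusted p was under 0.05 for 19 genes on the low side and 1 on the high side, beside 11.1% and 8.69% of all genes. With irradiated WT array 3 or untreated WT array 2 left out, Cox6b2 alone passed, beside 2.28% and 2.2% of all genes, and without irradiated KO array 1, which changes the shared estimate of spread, 6 members passed, beside 6.78% of all genes.

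In KO cells Cox6b2 was again the member that rose, and 0 members passed the test on the low side. The background was 5.94% of all genes (2.74% higher and 3.2% lower). At an unadjusted p under 0.05, limma gave 9 members on the low side and 1 on the high side, beside 11.2% and 8.68% of all genes. A difference below 0 was seen in 70 of 82 members and in 54.3% of all genes. The median of the members was -0.15, against -0.02 for all genes. The arrays did not overlap on the low side in 10 members (13.2% of all genes) and on the high side in 1 (10.2%). The count turned on irradiated KO array 1: without it 10 members passed, Cox6b2 up and 9 down, beside 10.2% of all genes. These 10 are 12.2% of the members, near that background, which itself rose from 5.94%. The 9 were Ndufaf4, Ndufaf6, Ndufaf7, Ndufaf8, Ndufa2, Ndufs7, Ndufb5, Cox7b and Atp5g3, of which Ndufb5 is named after its values were seen.

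Averaged over genotypes, 1 member rose and 12 fell, out of 82, beside 16.5% of all genes called (6.9% higher and 9.6% lower). The 13 calls are 15.9% of the members, near that background. Those that fell were 4 of 32 complex I subunits, 4 of 8 complex I assembly factors, 0 of 4 complex II subunits, 1 of 8 complex III subunits, 1 of 12 tested complex IV genes and 2 of 17 complex V genes. A difference below 0 was found in 76 of 82 members, beside 51% of all genes. The median was -0.19 over the members, against -0.00 over all genes, and by complex it was -0.20 for complex I, -0.38 for its assembly factors, -0.16 for complex II, -0.17 for complex III, -0.18 for complex IV and -0.20 for complex V. Unadjusted p was under 0.05 on the low side for 31 members, beside 17.2% of all genes, and on the high side for 1 (12.9%). All 6 irradiated arrays lay below all 6 untreated arrays in 4 members (4.68% of all genes) and above them in 1 (3.62%). Most falls were small, and the median half-width of the 95% confidence interval was 0.25. Without irradiated KO array 1, 31 members passed (1 up, 30 down, beside 22.2% of all genes), with the 30 spread over complex I (10), its assembly factors (6), complex III (3), complex IV (5) and complex V (6). Without untreated KO array 2, irradiated KO array 2 or untreated WT array 2, 5 passed, beside 12.4%, 12.6% and 12.4% of all genes. It was 6 without irradiated KO array 3 (13.1%). It was 7 without untreated KO array 1 (13.1%) or 3 (14.6%), untreated WT array 3 (12.1%) or irradiated WT array 3 (12.7%), and 8 without irradiated WT array 1 (15.6%). In each of the fits with 5 to 8 members past the test, fewer of all genes passed too, and the members' share lay below that of all genes.

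**Figure D2:**
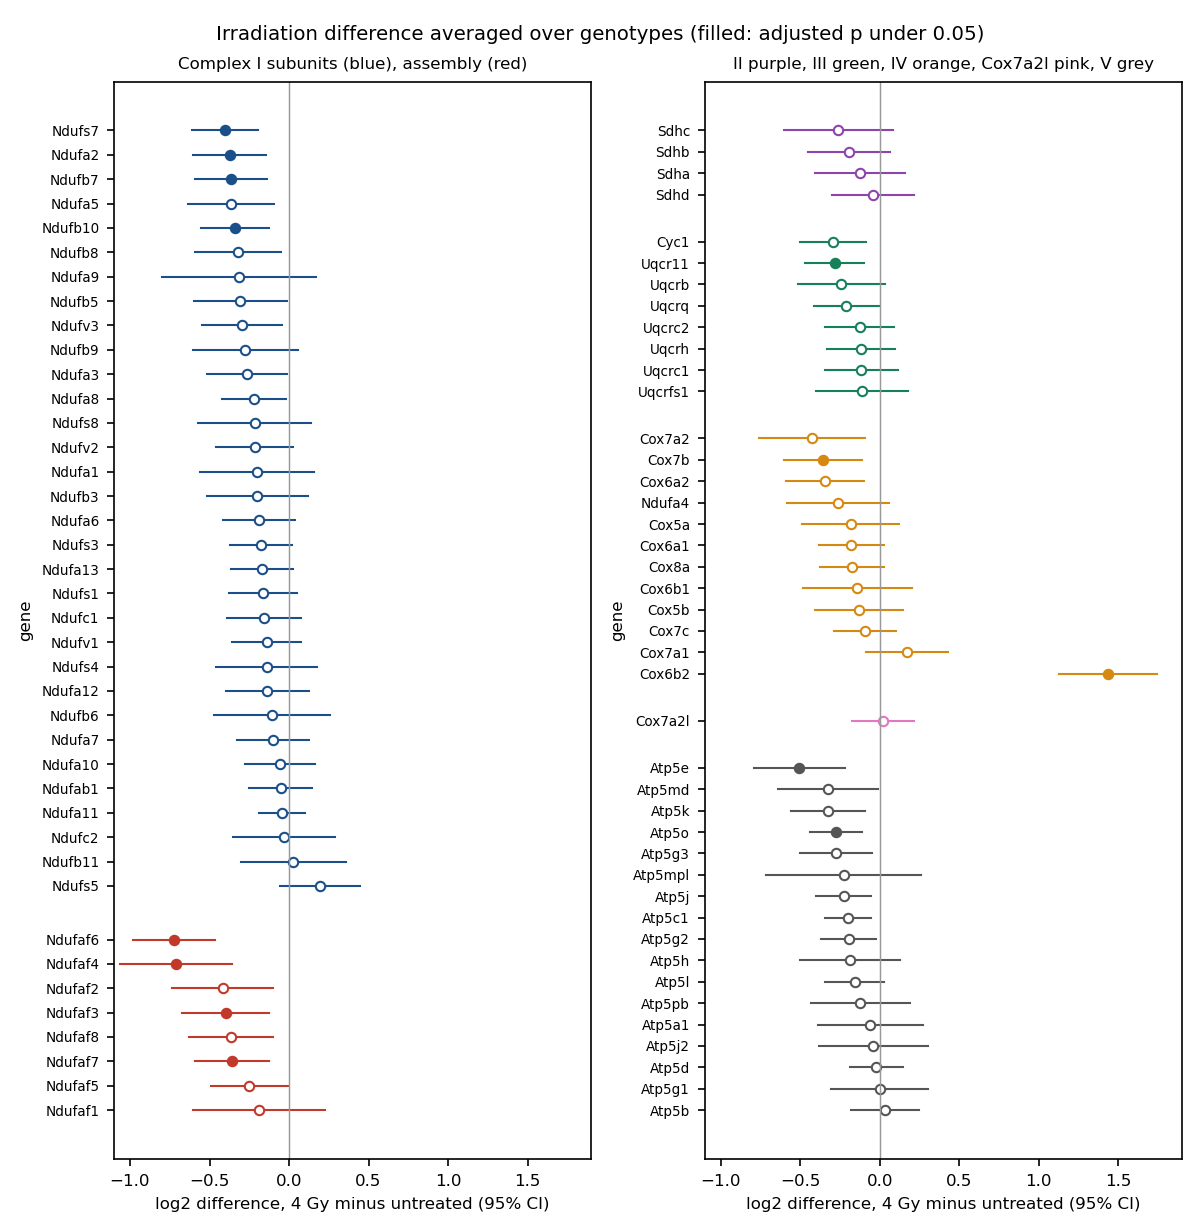
Log2 difference between 4 Gy and untreated cells averaged over genotypes (x axis, with 95% confidence interval from limma) for each of the 82 tested genes (y axis), grouped by complex; filled circles passed the adjusted threshold of 0.05. Cox6b2 lies at 1.44, apart from all others, and 76 of the 82 circles lie left of 0.

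Cox6b2 had log2 values of 7.44, 7.08 and 6.78 in untreated WT, 8.75, 8.99 and 8.41 in irradiated WT, 7.30, 7.12 and 7.18 in untreated KO and 8.35, 8.82 and 8.19 in irradiated KO. All 6 irradiated arrays were above all 6 untreated ones. Group means were 7.10 ± 0.33, 8.72 ± 0.29, 7.20 ± 0.09 and 8.45 ± 0.33 (SD, n = 3). Cox6b2 rose by 1.62 in WT (SE 0.20, 3.07-fold, limma adjusted p = 0.000658) and by 1.25 in KO cells (SE 0.20, 2.38-fold, limma adjusted p = 0.00333). Its average rise was 1.44 (95% confidence interval 1.13 to 1.74, limma adjusted p = 3.89e-05), and it passed the test in all 12 fits that left out 1 array. Cox6b1, the isoform expressed in most tissues, gave -0.14 on average (limma adjusted p = 0.608), with values of 8.80 to 9.75 over the 12 arrays. The rise was thus measured for 1 of the 2 isoforms, in irradiated KO array 1 as in the others.

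Complex I assembly factors held the largest falls. Ndufaf6, an assembly factor related to squalene synthases, had log2 values of 7.13, 7.33 and 7.31 in untreated WT, 6.32, 6.55 and 6.22 in irradiated WT, 7.31, 7.29 and 6.94 in untreated KO and 6.99, 6.34 and 6.54 in irradiated KO. The WT groups were separate, while in KO cells irradiated array 1 overlapped the untreated arrays. Ndufaf6 fell by 0.89 in WT (SE 0.17, 1.86-fold lower, limma adjusted p = 0.00948) and by 0.72 on average (SE 0.12, limma adjusted p = 0.00153), and its KO difference was -0.55 (limma adjusted p = 0.0775). The WT call was lost, with limma adjusted p up to 0.0506, when untreated WT array 2 or irradiated WT array 3 was left out.

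Ndufaf4, an early assembly factor that works with Ndufaf3 and whose promoter window holds the NRF1 palindrome, had log2 values of 9.37, 9.13 and 9.19 in untreated WT, 8.83, 8.24 and 8.48 in irradiated WT, 9.51, 9.14 and 9.01 in untreated KO and 9.08, 8.31 and 8.14 in irradiated KO. Its arrays again overlapped in KO cells only through irradiated array 1. Ndufaf4 fell by 0.71 on average (SE 0.16, 1.64-fold lower, limma adjusted p = 0.0109). Its differences of -0.71 in WT (limma adjusted p = 0.103) and -0.71 in KO cells (limma adjusted p = 0.0984) did not pass singly without a replicate block.

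Ndufaf7, a methyltransferase that acts on a core complex I subunit, fell by 0.36 on average (SE 0.11, limma adjusted p = 0.0374). It passed in 2 of the 12 fits that left out 1 array. Ndufaf3 also fell, by 0.40 (SE 0.13, limma adjusted p = 0.0476), and is named after its values were seen. Ndufaf8 gave -0.37 on average (95% confidence interval -0.63 to -0.10) and did not pass. It ranged from 8.24 to 8.54 in the WT arrays other than irradiated WT array 3, which was at 7.87, and from 7.61 to 8.37 in KO arrays.

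Same-numbered untreated and irradiated WT arrays deviated together from their group means. With the pair as a block within each genotype, 6 members passed in WT, beside 8% of all genes. Cox6b2 rose, and Ndufaf6, Ndufaf4 (limma adjusted p = 0.0114), Ndufaf3 (limma adjusted p = 0.0366), Uqcr11 (limma adjusted p = 0.0441) and Atp5o (limma adjusted p = 0.0459) fell. In KO cells, where same-numbered arrays did not all deviate together, 3 passed with this block, beside 9.06% of all genes: Cox6b2, Ndufaf4 (limma adjusted p = 0.011) and Ndufaf6 (limma adjusted p = 0.0436). On average 20 passed, 24.4% of the members beside 21.6% of all genes. The 7 added to the 13 were Ndufaf8 (limma adjusted p = 0.0215), Cox7a2 (0.0287), Atp5g3 (0.0325), Cyc1 (0.0331), Cox6a2 (0.0385) and, named after their values were seen, Ndufaf2 (0.0364) and Ndufa5 (0.0388). All other p-values given here are without the block.

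**Figure D3:**
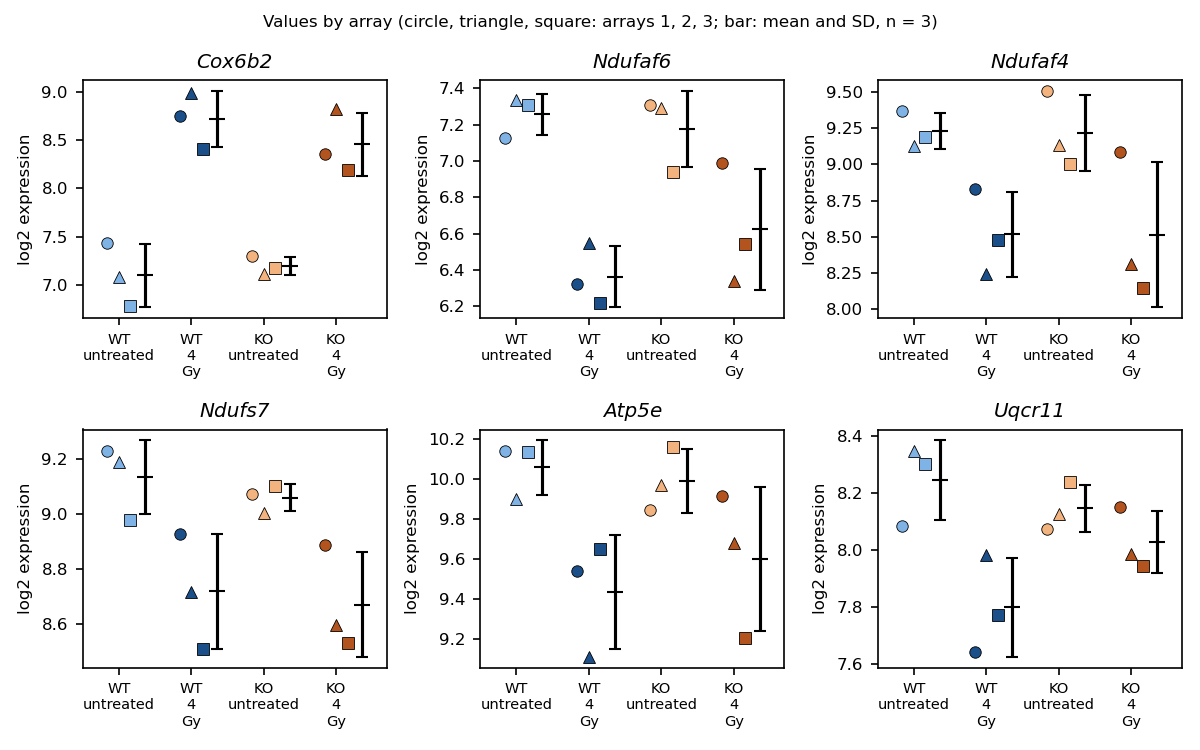
Log2 expression (y axis) of 6 members in each array, by group (x axis); circles, triangles and squares are arrays 1, 2 and 3, and bars give the mean and SD (n = 3). The irradiated groups of Cox6b2 lie above both untreated groups, and the KO 4 Gy circle (array 1) is the highest irradiated KO point of Ndufaf6, Ndufaf4, Ndufs7, Atp5e and Uqcr11.

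Among complex I subunits, Ndufs7 carries the last iron-sulphur cluster before ubiquinone and is a core subunit. It had log2 values of 9.23, 9.19 and 8.98 in untreated WT, 8.93, 8.72 and 8.51 in irradiated WT, 9.07, 9.0 and 9.10 in untreated KO and 8.89, 8.59 and 8.53 in irradiated KO. No array overlapped between doses, irradiated KO array 1 included. Ndufs7 fell by 0.40 on average (SE 0.10, 1.32-fold lower, limma adjusted p = 0.0126) and passed in all 12 fits that left out 1 array.

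Ndufa2, Ndufb7 and Ndufb10 are accessory subunits, Ndufa2 in the matrix arm and the others in the membrane arm. Averaged over genotypes, Ndufa2 fell by 0.37 (limma adjusted p = 0.0303), Ndufb7 by 0.36 (limma adjusted p = 0.0309) and Ndufb10 by 0.34 (limma adjusted p = 0.0337). Ndufb7 was 9.54 to 9.71 in untreated arrays and 8.97 to 9.53 in irradiated arrays, so that the doses did not overlap. Ndufa2 was 10.65 to 10.86 untreated and 10.10 to 10.71 irradiated, and its irradiated KO array 1, at 10.71, lay inside the untreated range. These 3 calls passed in 3 or 4 of the 12 fits that left out 1 array. Ndufs5, at the other end, had a difference of 0.23 in WT (limma adjusted p = 0.471) and of 0.16 in KO cells, with values of 5.55 to 6.17, near the brightness limit.

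In complex II none of the 4 subunits passed. Sdhb, the iron-sulphur subunit, gave -0.19 on average (95% confidence interval -0.45 to 0.06) and Sdhc, a membrane anchor, gave -0.26 (-0.60 to 0.08). Sdhc ranged from 6.54 to 7.49 over the 12 arrays, with the highest value shared by untreated WT array 2 and irradiated KO array 1.

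In complex III, Uqcr11, a small subunit, had log2 values of 8.08, 8.35 and 8.30 in untreated WT, 7.64, 7.98 and 7.77 in irradiated WT, 8.07, 8.13 and 8.24 in untreated KO and 8.15, 7.99 and 7.94 in irradiated KO. The WT groups did not overlap and the KO groups did. Uqcr11 fell by 0.28 on average (SE 0.09, limma adjusted p = 0.0403), and passed in 3 of the 12 fits that left out 1 array. Its difference was -0.45 in WT (limma adjusted p = 0.0559) and -0.12 in KO cells (limma adjusted p = 0.663). Cyc1, the haem subunit that hands electrons to cytochrome c, gave -0.29 (SE 0.10, limma adjusted p = 0.0563), just outside the threshold.

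In complex IV, Cox7b, a small accessory subunit, fell by 0.36 on average (SE 0.11, limma adjusted p = 0.0498), just inside the threshold, and passed in 1 of the 12 fits that left out 1 array. A second probe set of Cox7b gave -0.51. None of the other tissue isoforms passed. Cox6a2 and Cox7a1 are the heart and skeletal muscle isoforms and Cox6a1 and Cox7a2 the widespread ones. Cox6a2 gave -0.35 (limma adjusted p = 0.0544) and Cox6a1 -0.18 (limma adjusted p = 0.226), while Cox7a1 gave 0.17 (95% confidence interval -0.09 to 0.43) and Cox7a2 -0.42 (-0.76 to -0.09, limma adjusted p = 0.0806). Cox8a gave -0.17 and Ndufa4, now counted as a complex IV subunit, -0.26, and neither passed. Cox8b, of muscle, Cox7b2 and Cox8c, of testis, and Ndufa4l2, known from hypoxia, stayed below the brightness limit in all 12 arrays. Cox7a2l, grouped above as a supercomplex factor, gave 0.02 (-0.17 to 0.22), and its sign changed when single arrays were left out.

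In complex V, Atp5e, the epsilon subunit of the rotating stalk, had log2 values of 10.14, 9.90 and 10.13 in untreated WT, 9.54, 9.11 and 9.65 in irradiated WT, 9.84, 9.97 and 10.16 in untreated KO and 9.91, 9.68 and 9.21 in irradiated KO. The WT groups were separate and the KO groups overlapped through irradiated array 1. Atp5e fell by 0.51 on average (SE 0.13, 1.42-fold lower, limma adjusted p = 0.0202). A second, dimmer probe set of Atp5e gave -0.10, so the 2 probe sets disagree in size.

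Atp5o, the subunit that ties the peripheral stalk to the catalytic head, had log2 values of 6.69, 6.60 and 6.54 in untreated WT, 6.32, 5.99 and 6.26 in irradiated WT, 6.56, 6.53 and 6.53 in untreated KO and 6.42, 6.40 and 6.42 in irradiated KO. The doses did not overlap in either genotype. Atp5o fell by 0.42 in WT (SE 0.11, limma adjusted p = 0.0397) and by 0.28 on average (SE 0.07, limma adjusted p = 0.0246), and its KO difference was -0.13 (limma adjusted p = 0.57). The WT call passed in 2 of the 12 fits that left out 1 array, with limma adjusted p up to 0.123. Atp5g1, Atp5g2 and Atp5g3 encode the same mature ring subunit with different targeting sequences. They gave -0.00, -0.20 (limma adjusted p = 0.113) and -0.28 (limma adjusted p = 0.0913), and none passed.

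**Figure D4:**
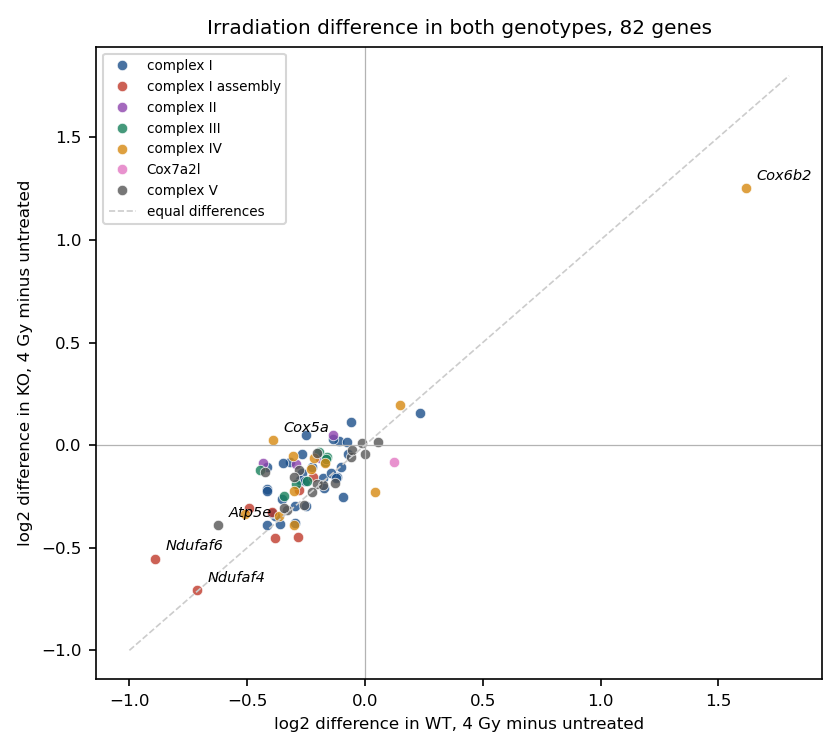
Log2 difference between 4 Gy and untreated cells in WT (x axis) and in KO cells (y axis) for the 82 tested genes, coloured by complex; the dashed line marks equal differences. Cox6b2 lies at 1.62 and 1.25, and most other points lie left of and below 0, with Ndufaf6 and Ndufaf4 farthest out.

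The genotypes were compared at each dose and averaged, and 0 of the 82 members passed limma in any of these comparisons. At an unadjusted p under 0.05 the count was also 0, beside 1.42% of all genes higher and 0.73% lower without irradiation, 1.34% and 1.73% after it, and 2.2% and 1.94% averaged over doses. The background was 1 gene of 15348 (0.00652%), which was Zc3hc1. Without irradiation the median of the members was -0.10 in KO against WT, with 69 of 82 below 0 beside 48.4% of all genes, and in 8 members all KO arrays lay below all WT arrays, beside 3.55% of all genes; in 0 they lay above, beside 4.4%. These counts too are of members that deviate together, and the median over the members, at -0.10, -0.07 and -0.16 in untreated KO arrays and 0.05, 0.06 and -0.10 in untreated WT arrays, overlapped between the genotypes. Averaged over doses the arrays did not overlap in 0 members, beside 0.111% of all genes on the high side and 0.0652% on the low side. The lowest without irradiation were Ndufa9, a complex I subunit, at -0.29 (95% confidence interval -0.98 to 0.39), and Ndufa3 at -0.24 (-0.60 to 0.11). The highest were Cox7c at 0.17 (-0.11 to 0.45) and Cox6b2 at 0.10 (-0.34 to 0.54).

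After irradiation the median KO minus WT difference was -0.03, with 52 of 82 below 0 beside 52.7% of all genes. The arrays of the genotypes did not overlap in 2 members on the high side (2.57% of all genes) and in 0 on the low side (3.83%). It became 0.04, 0.05 and 0.07 without irradiated KO array 2, irradiated KO array 3 and irradiated WT array 2. Ndufaf8 gave -0.31 (95% confidence interval -0.68 to 0.07), Cox6b2 -0.26 (-0.70 to 0.18), Ndufaf6 0.26 (-0.11 to 0.63) and Sdhc 0.23 (-0.26 to 0.72). These intervals leave room for differences in either direction. The difference between the irradiation responses of the 2 genotypes was tested as an interaction, and 0 members passed, also at an unadjusted p under 0.05 (0.41% of all genes higher and 1.12% lower), as did 0 of all genes after adjustment (0%). Its median was 0.08, with 60 of 82 members above 0 beside 47.7% of all genes. For Cox6b2 it was -0.36 (-0.98 to 0.26).

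Other genes of the pathway were taken from further lists, tested in the same fit and read beside the same 16.5% of all genes called with irradiation averaged over genotypes. Among 36 assembly factors outside the symbol rule, 4 fell: Ecsit, of complex I, by 0.46 (limma adjusted p = 0.0107), Uqcc2 and Bcs1l, of complex III, by 0.44 and 0.34, and Cox16, of complex IV, by 0.27. Among 10 other structural or carrier genes 1 fell, Cox4i2, the lung isoform of complex IV subunit 4, by 0.49 (limma adjusted p = 0.0206). Of 15 citrate cycle genes 0 passed, of 12 coenzyme Q synthesis genes Coq2 fell by 0.42, and of 12 mitochondrial carrier, uncoupling and turnover genes Slc25a13 fell by 0.47. None of 13 mitochondrially encoded genes had a single-symbol probe set here.

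Of 18 regulators of mitochondrial gene expression, 4 fell and 0 rose. Tfb1m, which modifies mitochondrial ribosomal RNA, had log2 values of 8.42, 8.61 and 8.59 in untreated WT, 7.73, 8.12 and 7.62 in irradiated WT, 8.62, 8.78 and 8.38 in untreated KO and 8.02, 7.48 and 7.27 in irradiated KO, with no overlap between doses. It fell by 0.86 on average (SE 0.13, limma adjusted p = 0.0011). Pprc1 and Ppargc1b, coactivators of the PGC-1 family that act with NRF1, fell by 0.67 (SE 0.11, limma adjusted p = 0.00164) and by 0.33 (SE 0.07, limma adjusted p = 0.00982). Myc, a transcription factor that drives growth and mitochondrial genes, fell by 1.15 (SE 0.26, limma adjusted p = 0.0101), from 10.85 to 11.36 in untreated arrays to 9.04 to 10.75 in irradiated ones, with irradiated KO array 1 the highest of these at 10.75. The median of all 18 was -0.05.

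Of 16 glycolysis genes, 1 rose and 1 fell. Slc2a1, the glucose transporter GLUT1, rose by 0.94 on average (SE 0.16, limma adjusted p = 0.00189), or by 0.47 when all its probe sets were averaged, and Pdk1, a kinase that holds back pyruvate oxidation, fell by 0.63 (SE 0.10, limma adjusted p = 0.00105). The median of the list was -0.06.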

How the data were processed

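The authors deposited 1 log2 expression value per probe set and array. Per the submitters' processing notes they were made with oligo and RMA, which corrects background, normalizes by quantiles and summarises probes; no source used here gives versions, build or annotation release. The platform annotation named 25335 of 41345 probe sets, 23521 of them with 1 symbol, and gene IDs of 23328 matched RefSeq. Another 10 probe sets match the symbol rule among several symbols and were left out, with 9 genes measured only there. Groups and replicate numbers come from sample titles. Tests used limma 3.58.1 (lmFit and eBayes, two-sided) in R 4.3.3, checked on simulated data; the number of arrays limits the precision.

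Same-numbered untreated and irradiated arrays correlated in their deviations from group means over genes at 0.49, 0.48 and 0.42 in WT and at 0.47, -0.24 and -0.12 in KO. By this measure same-numbered arrays deviated together for every number in WT and, in KO, for array 1 only. Whether such arrays came from the same pools is not stated. In KO, untreated array 3 correlated with irradiated array 2 at 0.52 and untreated array 2 with irradiated array 3 at 0.44. Alternatives changed scaling, brightness limit, probe set rule, prior, arrays fitted, block and each array in turn.

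Genes were named if they passed a contrast (up to 10 by p), had the 2 smallest p in their complex for irradiation averaged over genotypes, were among the 2 largest rises or falls of a simple contrast, or are tissue isoforms, and of related lists up to 4 that passed, with Zc3hc1. Members, lists and motifs were chosen with earlier results of these data known.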

Additional observations from a re-analysis of the deposited data

How the results depend on the processing

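Cox6b2 passed in WT, in KO cells and on average under every alternative run, and Ndufaf6, Ndufaf4 and Ndufs7 passed on average under all 20. With the replicate block within genotype, 6 members passed in WT, 3 in KO cells and 20 on average, beside 8%, 9.06% and 21.6% of all genes; with the replicate block over all 4 groups, 2 passed in KO cells, beside 7.97%. With single arrays left out, the count ran from 1 to 6 in WT, from 1 to 10 in KO cells and from 5 to 31 on average, while the share of all genes ran from 2.05% to 6.78%, 2.55% to 10.2% and 12.1% to 22.2%, and the count of members was 0 for each genotype comparison and the interaction. The median member difference then ran from -0.34 to -0.13 for irradiation in WT, -0.30 to -0.09 in KO cells, -0.27 to -0.14 on average and -0.15 to -0.07 for genotype without irradiation, and for genotype after irradiation from -0.172 to 0.0732, changing sign in 3 fits. Single genes that changed sign were uncalled: Atp5g1 (-0.0817 to 0.0981) and Cox7a2l (-0.0355 to 0.0897) for average irradiation and Cox6b2 (-0.0586 to 0.27) for genotype without irradiation. The causes were not tested. Scaling each array to its median or by cyclic loess gave 11 and 9 members past the test on average, beside 15.7% and 16.6% of all genes. The replicate block changed no genotype or interaction count. In WT every irradiated array correlated best with the untreated array of its own number, in KO only array 1 did, so the KO and average values under the block rest in part on pairs that the arrays do not bear out. The number of arrays, 3 a group, limits the precision, with a median 95% confidence interval half-width of 0.36 for a member in WT.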
